A study of Mus musculus with 10 samples.

Results

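Genes of sterol and fatty acid synthesis that are known targets or regulators of the sterol regulatory element-binding proteins (SREBPs) were followed in male mouse embryonic stem cells (mESCs) grown by 2 culture methods. The set holds 33 genes of the 25965 features in the expression table. They were chosen by name: 7 enzymes of the mevalonate steps, 11 enzymes of the sterol steps, 5 SREBP regulators, the sterol carrier Stard4 and 9 fatty acid genes. Of these, 32 were listed under their current symbol, and Msmo1 was listed under its older symbol Sc4mol. No gene of LDL uptake is among these 33.

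SREBPs are made as membrane proteins of the endoplasmic reticulum, where SCAP binds them and carries them to the Golgi for cleavage when membrane sterol is low. The released factors enter the nucleus and switch on genes of sterol and fatty acid synthesis. INSIG proteins hold SCAP back when sterols are plentiful. SREBP-2, from Srebf2, is best known for the sterol genes, and the SREBP-1 forms, from Srebf1, for the fatty acid genes. The mevalonate steps turn acetyl-CoA into farnesyl pyrophosphate, the sterol steps carry squalene through lanosterol to cholesterol, and the fatty acid genes make, desaturate and elongate acyl chains. Rapidly dividing mESCs need both products for new membrane.

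The 10 RNA-seq libraries came from male lines of strain C57/Bl6, with 2 libraries in each of 5 groups. Independent lines, 1 library per line and group, were derived under the Keniry2022 method and sampled at passage 0 (p0). Each line was then split and sampled after 10 and 20 passages in either the Keniry2022 or the Mulas2019 method. The groups that the labels call New are taken here as Keniry2022 and those called Old as Mulas2019, after the study's description. Keniry2022 cells grew in suspension on dishes not treated for tissue culture, were passaged daily, and were kept denser and in more medium. Mulas2019 cells grew attached to gelatin, were passaged every other day and were kept sparser. Surface, density, medium volume and passaging interval changed together, so their parts cannot be told apart. The p20 Keniry2022 and p10 Mulas2019 groups had been cultured for matched numbers of days. All groups, p0 included, shared the 2i/LIF medium: the MEK inhibitor PD0325901, the GSK3 inhibitor CHIR99021 and leukaemia inhibitory factor. All shared fluconazole too, an azole antifungal that acts on the fungal form of CYP51, together with piperacillin and ciprofloxacin.

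Values are log2 RPKM, that is, log2 of reads scaled to the exon length of the gene and the depth of the library, so that levels can be compared between genes as well as between libraries. The libraries held 24053996 to 30236823 reads. A member had between 161 (Idi1) and 39972 reads (Scd2) in a library, and all 33 members passed the filter on low values. The 8 mESC markers, Pou5f1, Sox2 and Nanog among them, were above 1 RPKM in every library. The 6 fibroblast markers together reached at most 1.005 RPKM, with 3 or 4 of them, Col1a2 and Col3a1 among these, at 0 reads in each library. The 6 primitive endoderm markers together reached 1.57 to 2.50 RPKM.

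Some libraries stand apart or go against their labels. The p0 libraries differed from each other far more than other pairs: the SD over features of the difference between replicates was 0.611 at p0 and 0.230 to 0.265 in the other groups. Reads on 4 Y-linked genes numbered 132 in p0 replicate 1 and 8140 in p0 replicate 2. The order was the same in the p10 Keniry2022 (94 and 7929), p10 Mulas2019 (43 and 5930) and p20 Mulas2019 (13 and 4578) pairs. It was opposite in the p20 Keniry2022 pair, with 6659 reads in replicate 1 and 48 in replicate 2. In every group, 1 library thus had 13 to 132 such reads and the other had 4578 to 8140. The study reports that a line lost its Y chromosome during derivation, before the culture methods were compared. Whether the libraries with few Y-linked reads came from that line was not tested, nor was the part of Y loss in the results below. Comparisons that rest on p0 are therefore given with and without p0 replicate 1, and the fits that give calls below do not use replicate numbers.

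Promoter sequence is shown for 3 enzymes that the method comparison turns on: Hmgcs1 and Ebp, higher under Keniry2022 against the direction of most enzymes, and Dhcr7, which had the smallest p among the sterol enzymes. Hmgcs1 alone met the rule set for printing, a match to the sterol regulatory element, and Ebp and Dhcr7 were added after their values were seen. Sequences are the 250 bases before the RefSeq transcription start (GRCm38.p6). Capitals mark TCACNCCAC, a form of the sterol regulatory element, CCAAT, the NF-Y box, and GGGCGG, the Sp1 box, on either strand.
Hmgcs1 (chr13:119690101-119690350, plus strand): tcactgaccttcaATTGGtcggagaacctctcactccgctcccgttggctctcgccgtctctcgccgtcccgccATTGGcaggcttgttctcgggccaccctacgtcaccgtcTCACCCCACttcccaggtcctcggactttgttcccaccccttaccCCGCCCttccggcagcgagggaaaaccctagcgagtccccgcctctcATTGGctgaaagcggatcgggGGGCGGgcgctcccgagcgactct
Ebp (chrX:8193513-8193762, minus strand): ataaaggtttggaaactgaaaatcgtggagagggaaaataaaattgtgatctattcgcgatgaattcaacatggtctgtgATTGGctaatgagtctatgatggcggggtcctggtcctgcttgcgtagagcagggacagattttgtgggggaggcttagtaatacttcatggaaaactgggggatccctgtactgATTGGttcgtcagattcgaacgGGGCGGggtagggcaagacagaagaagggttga
Dhcr7 (chr7:143822917-143823166, plus strand): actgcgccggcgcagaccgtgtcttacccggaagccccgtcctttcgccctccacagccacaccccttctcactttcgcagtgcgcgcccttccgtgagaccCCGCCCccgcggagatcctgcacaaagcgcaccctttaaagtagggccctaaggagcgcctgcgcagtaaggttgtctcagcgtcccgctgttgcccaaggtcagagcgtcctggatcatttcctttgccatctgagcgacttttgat

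The Hmgcs1 stretch holds 1 match to the sterol regulatory element, 137 bases before the start, with 3 CCAAT boxes and 2 GGGCGG boxes around it. The Ebp stretch holds 2 CCAAT boxes and 1 GGGCGG box, and the Dhcr7 stretch holds 1 GGGCGG box. Windows from 250 bases before to 50 after each start could be matched by symbol to 26 of the 33 members. Over all windows of a gene, the sterol regulatory element letters were in 1 of these 26 genes, against 1.44% of all 27025 symbols. CCAAT was in 21 of 26, against 41.1% of symbols, and GGGCGG in 22 of 26, against 38.2%. The 5 matched members without CCAAT were Acat2, Scap, Acaca, Elovl6 and Fads2. The transcription start of the Acaca window lay 65766 bases from the start of the Acaca feature that was counted. Its lack of a match therefore does not describe that start. A match is a stretch of letters and not a measured binding site, and a window without one says nothing of the factor.

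The members spanned a wide range of levels. Scd2 (115 to 244 RPKM over the 10 libraries), Acly (113 to 190) and Hmgcs1 (119 to 161) were the most abundant. Acss2, which makes acetyl-CoA from acetate, stayed between 1.63 and 2.20 RPKM, and Idi1, which isomerises isopentenyl pyrophosphate, between 1.91 and 3.23. The low end was shared by Acaca, the first committed enzyme of fatty acid synthesis, at 2.40 to 5.94 RPKM.

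**Figure D1:**
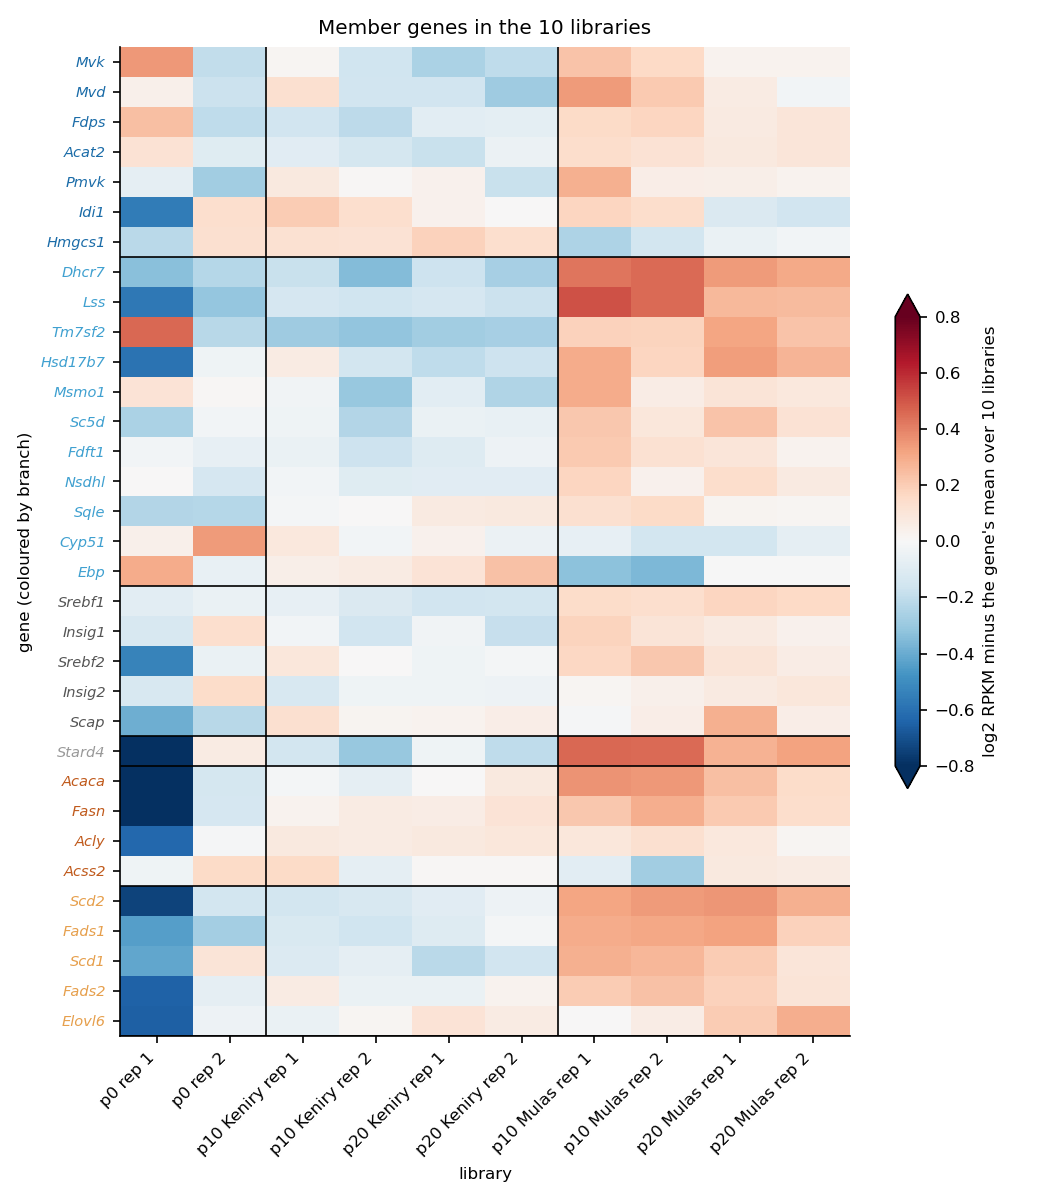
Level of each of the 33 genes (rows, coloured by branch) in each of the 10 libraries (columns), as log2 RPKM minus that gene's mean over the 10 libraries; the colour scale stops at -0.8 and 0.8, which Acaca, Fasn and Stard4 in p0 replicate 1 pass. Most rows are red in the 4 Mulas2019 libraries and pale or blue in the 4 Keniry2022 libraries, while Hmgcs1, Cyp51 and Ebp run the other way.

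The main comparison asked how the methods differ over both passages, 4 libraries against 4. The 4 libraries of a method came from 2 lines, each sampled at p10 and p20, and were entered without a block. The p-values and intervals therefore do not rest on 4 independent lines. Most enzymes of both branches were lower in mESCs kept by Keniry2022 than in those kept by Mulas2019, led by Dhcr7 (1.54-fold higher under Mulas2019), Lss (1.43-fold), Tm7sf2 (1.43-fold) and Scd2 (1.34-fold). The carrier Stard4 was lower as well (1.46-fold). Hmgcs1 (1.20-fold), Ebp (1.22-fold) and Cyp51 (1.09-fold) were instead higher under Keniry2022. By limma with Benjamini-Hochberg adjustment over all features, 22 of the 33 members were called lower under Keniry2022, 3 were called higher and 8 were not called at an adjusted p of 0.05. In the model of 10 libraries and 5 groups, which includes p0, the same comparison called 8 lower and 1 higher. It lost 16 of the 25 calls. Over all features that model called fewer too, 1225 lower and 1000 higher of 11561. The 8-library comparison called 25.5% of all 11654 features tested lower and 25.9% higher. The median difference was -0.20 log2 over the members and 0.00 over all features tested. Differences are given throughout as Keniry2022 minus Mulas2019. For 21 members all 4 Keniry2022 libraries lay below all 4 Mulas2019 libraries, as did 23.4% of all features, and for 3 members they lay above, as did 23.1%. In these bulk samples a smaller share of cells expressing a gene and less RNA per cell cannot be told apart.

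**Figure D2:**
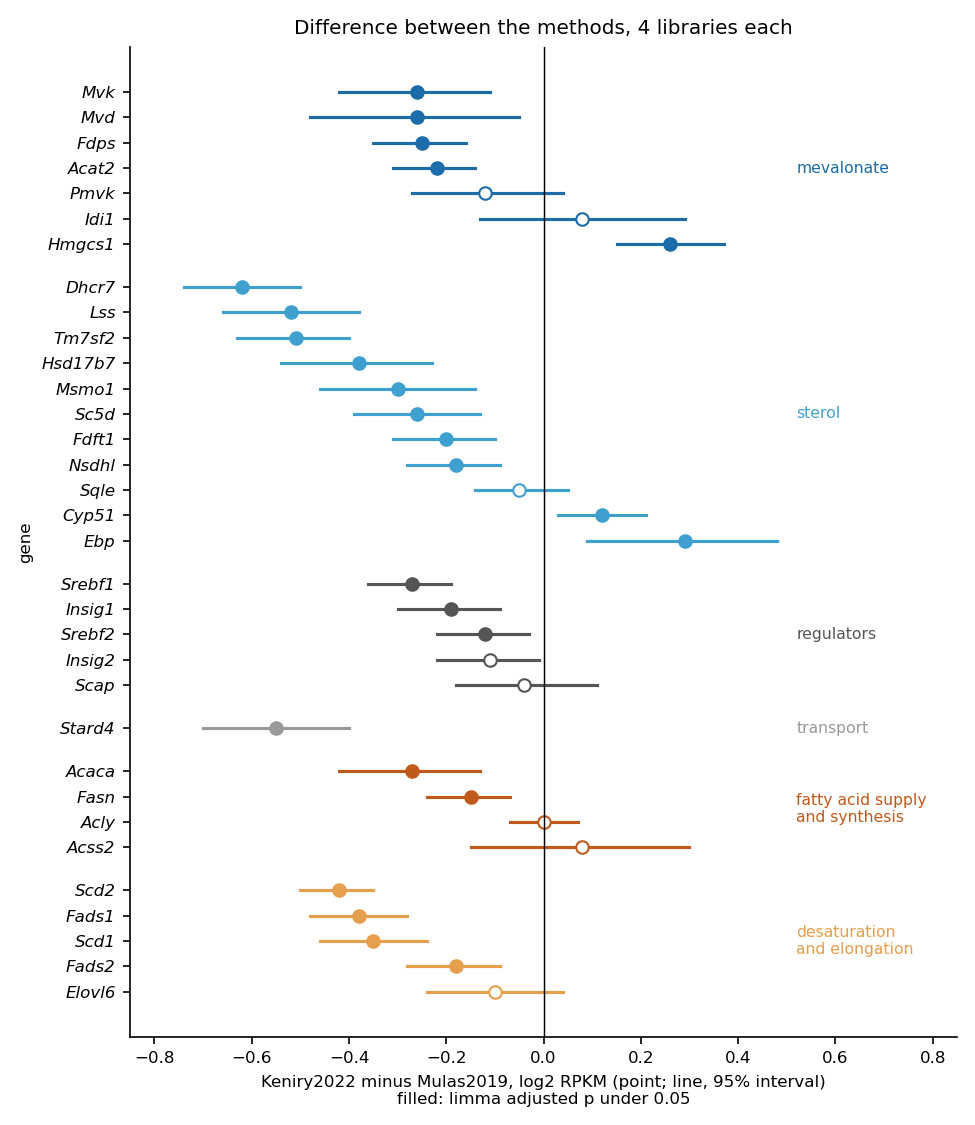
Difference between the methods (Keniry2022 minus Mulas2019, log2 RPKM, 4 libraries each) for each member, grouped by branch, with its 95% interval; filled points have a limma adjusted p under 0.05. Dhcr7 lies furthest to the left at -0.62, Ebp furthest to the right at 0.29, and Acly sits at 0.00.

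In the mevalonate steps, 4 of 7 enzymes were called lower under Keniry2022, 1 was called higher and 2 were not called. Hmgcs1 makes HMG-CoA early in the pathway (table position chr13:119690462-119708086) and was the one called higher. Its log2 RPKM was 7.26 in both p10 Keniry2022 libraries and 7.33 and 7.28 at p20, against 6.89 and 6.997 at p10 and 7.09 and 7.12 at p20 under Mulas2019. The groups did not overlap, and the p0 libraries lay at 6.92 and 7.27, within the Mulas2019 and the Keniry2022 range respectively. The difference was 0.26 ± 0.049 (SE; limma adjusted p = 0.00175; 0.0608 in the 10-library model). Under quantile normalisation it was 0.10 and was not called (adjusted p = 0.147).

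The other called mevalonate enzymes were lower by similar amounts. None of them kept its call in the 10-library model (limma adjusted p 0.0532 to 0.149). Acat2, a cytosolic thiolase that makes acetoacetyl-CoA, differed by -0.22, mevalonate kinase Mvk by -0.26, the decarboxylase Mvd by -0.26 and farnesyl pyrophosphate synthase Fdps by -0.25. The Mvd groups overlapped, and its call was lost (adjusted p 0.0789 to 0.11) on leaving out p10 Keniry2022 replicate 2, either p20 Keniry2022 library or either p10 Mulas2019 library. Median centring (limma adjusted p = 0.0563) and no filter (0.0699) ended the Mvd call as well. Pmvk, phosphomevalonate kinase, was not called (-0.12, 95% interval -0.27 to 0.04), nor was Idi1 (0.08, -0.13 to 0.29). Hmgcs1 thus differed in direction from the 4 mevalonate enzymes called lower.

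The sterol steps held the largest differences, with 8 of 11 enzymes called lower, 2 called higher and 1 not called. Dhcr7 catalyses the last reduction to cholesterol (chr7:143823145-143848410). It stood at 4.16 and 3.99 log2 RPKM at p10 and 4.18 and 4.08 at p20 under Keniry2022, against 4.77 and 4.79 at p10 and 4.68 and 4.65 at p20 under Mulas2019. The p0 libraries, at 4.01 and 4.12, lay within the Keniry2022 range, and no library of either method overlapped the other method. The difference was -0.62 ± 0.052 (limma adjusted p = 3.98e-05).

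Tm7sf2, a sterol C14 reductase that acts after CYP51, had 1.99 and 1.96 log2 RPKM at p10 and 2.00 and 2.01 at p20 under Keniry2022. Under Mulas2019 it had 2.46 and 2.45 at p10 and 2.59 and 2.50 at p20. Here p0 was split, with replicate 1 at 2.73, above every other library, and replicate 2 at 2.05, just above the Keniry2022 libraries. The method difference was -0.51 ± 0.053 (limma adjusted p = 8.39e-05).

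Lss, lanosterol synthase, which closes the sterol rings, had 2.76 and 2.74 log2 RPKM at p10 and 2.76 and 2.72 at p20 under Keniry2022, an SD of 0.0176 over the 4 libraries. Under Mulas2019 it had 3.40 and 3.35 at p10 and 3.16 and 3.15 at p20. Both p0 libraries, at 2.33 and 2.58, lay below all 8 others. The method difference was -0.52 ± 0.064 (limma adjusted p = 0.000181).

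Among the remaining sterol enzymes, Hsd17b7 (-0.38) and Nsdhl (-0.18), which with Msmo1 (-0.30) remove the C4 methyl groups, were all called lower under Keniry2022. So were Sc5d, the C5 desaturase that acts just before Dhcr7 (-0.26), and squalene synthase Fdft1 (-0.20). Hsd17b7, Nsdhl and Sc5d were not called in the 10-library model (limma adjusted p 0.0588 to 0.0819). Squalene epoxidase Sqle, often described as rate-limiting in the later pathway, was not called (-0.05, 95% interval -0.14 to 0.05).

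Cyp51 and Ebp were the sterol enzymes called higher under Keniry2022. Cyp51, the lanosterol 14-alpha demethylase, had 5.57 and 5.47 log2 RPKM at p10 and 5.52 and 5.44 at p20 under Keniry2022, against 5.42 and 5.34 at p10 and 5.34 and 5.41 at p20 under Mulas2019. The ranges came close without overlapping, and p0 was higher than both methods in replicate 2 (5.83) and within the Keniry2022 range in replicate 1 (5.53). The difference of 0.12 ± 0.039 (limma adjusted p = 0.0267; 0.296 in the 10-library model) shrank to 0.03 under quantile normalisation (adjusted p = 0.544). The call was also lost without p10 Keniry2022 replicate 1, p20 Keniry2022 replicate 1, p10 Mulas2019 replicate 2 or p20 Mulas2019 replicate 1 (adjusted p 0.0583 to 0.0772).

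Ebp, the sterol isomerase, had 4.41 and 4.43 log2 RPKM at p10 and 4.47 and 4.60 at p20 under Keniry2022. Under Mulas2019 it had 4.04 and 4.004 at p10 but 4.36 in both p20 libraries, just under the lowest Keniry2022 library. The p0 libraries lay at 4.66 and 4.30. The difference was 0.29 ± 0.088 (limma adjusted p = 0.0191), and the call was lost without p20 Keniry2022 replicate 2 (adjusted p = 0.0555) or p10 Mulas2019 replicate 2 (adjusted p = 0.0521).

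**Figure D3:**
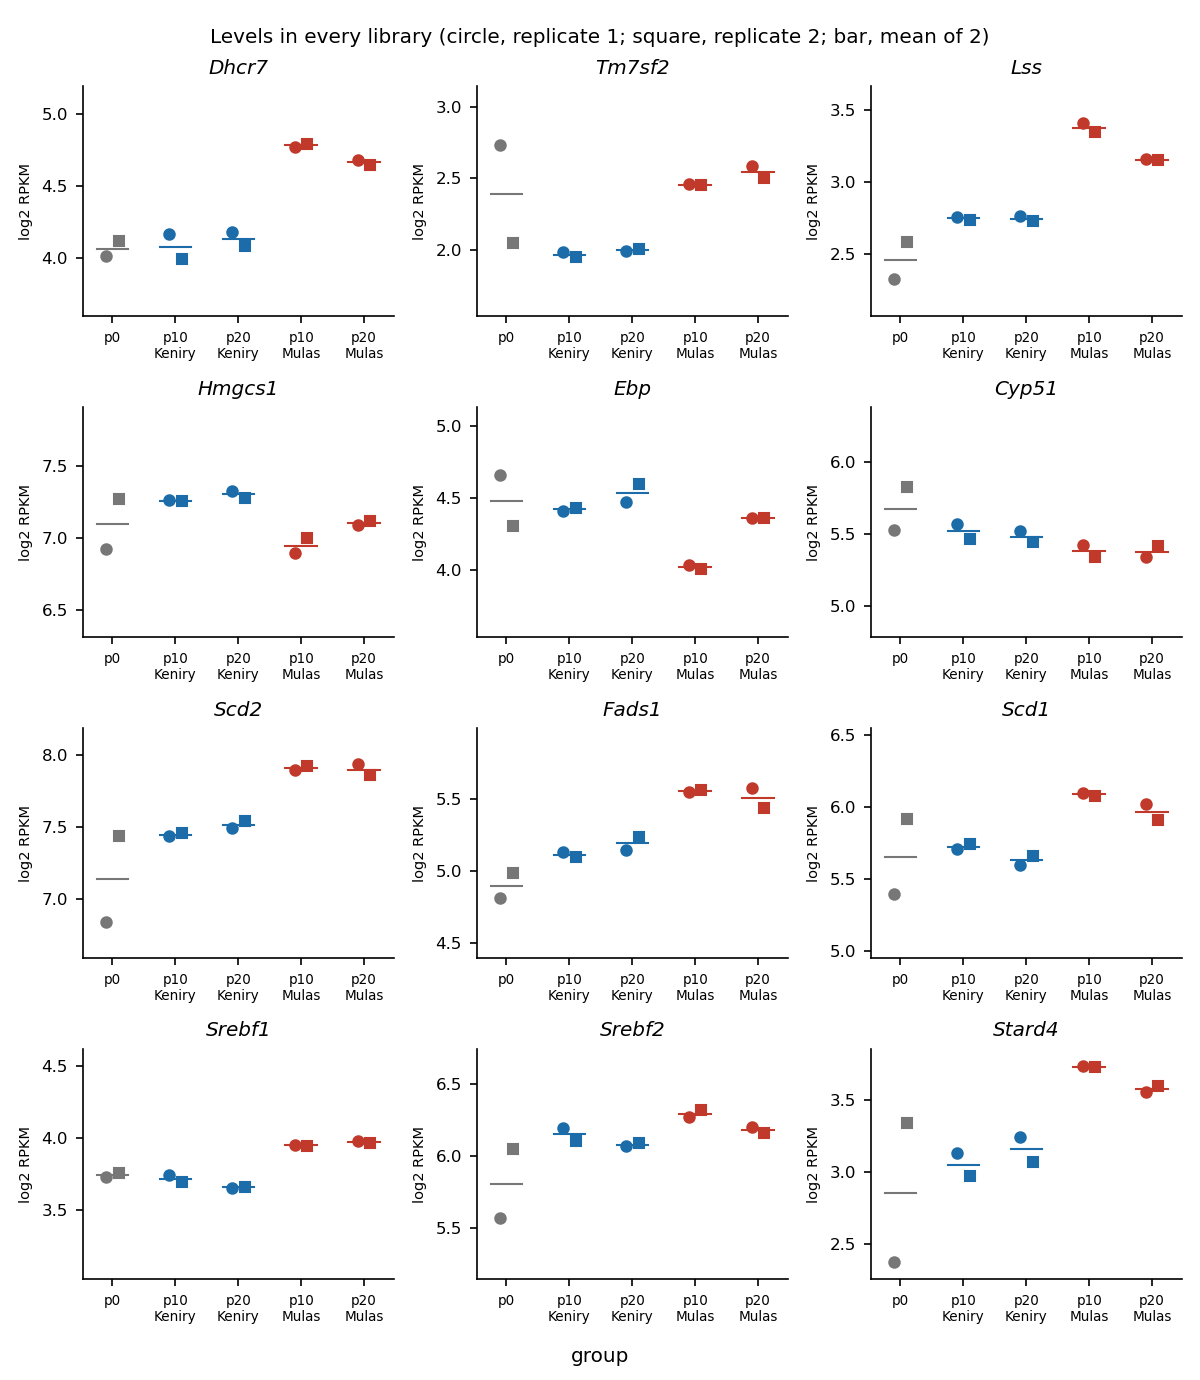
Log2 RPKM of 12 genes in every library (vertical axes of equal span), with groups along the horizontal axis; grey points are p0, blue Keniry2022 and red Mulas2019, and bars are means of 2. Dhcr7, Lss, Tm7sf2, Scd2, Fads1, Scd1, Srebf1 and Stard4 have every red point above every blue point, and Hmgcs1, Ebp and Cyp51 every blue point above every red point; Srebf2 overlaps.

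Among the 9 fatty acid genes, 6 were called lower under Keniry2022, none was called higher and 3 were not called, with a median of -0.18. The largest differences were in desaturases. Scd2, a stearoyl-CoA desaturase that makes monounsaturated fatty acids, stood at 7.43 and 7.46 log2 RPKM at p10 and 7.49 and 7.54 at p20 under Keniry2022, against 7.90 and 7.92 at p10 and 7.93 and 7.86 at p20 under Mulas2019. It had the smallest p of all 33 members (-0.42 ± 0.034, limma adjusted p = 3.64e-05). The p0 libraries were far apart, at 6.84 and 7.43.

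Fads1, a desaturase of polyunsaturated fatty acids, had 5.13 and 5.09 log2 RPKM at p10 and 5.15 and 5.23 at p20 under Keniry2022, against 5.55 and 5.56 at p10 and 5.57 and 5.43 at p20 under Mulas2019. It differed by -0.38 ± 0.044 (limma adjusted p = 0.000137), and both p0 libraries (4.81 and 4.98) lay below all 8 others. Scd1, the related stearoyl-CoA desaturase, had 5.71 and 5.74 at p10 and 5.60 and 5.66 at p20 under Keniry2022, against 6.10 and 6.08 at p10 and 6.02 and 5.91 at p20 under Mulas2019. It differed by -0.35 ± 0.049 (limma adjusted p = 0.000328; 0.0548 in the 10-library model), and p0 replicate 2 (5.92) lay at the lower edge of the Mulas2019 range while replicate 1 (5.40) lay below every other library. Fads2, which works with Fads1 in polyunsaturated fatty acid synthesis, was lower by a smaller amount (-0.18, limma adjusted p = 0.294 in the 10-library model). The elongase Elovl6 was not called (-0.10, 95% interval -0.24 to 0.04).

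Of the 4 supply and synthesis genes, 2 were called. Acaca was called lower under Keniry2022 (-0.27), as was fatty acid synthase Fasn (-0.15). Neither was called in the 10-library model (limma adjusted p = 0.249 for Acaca and 0.53 for Fasn). Acly, which makes cytosolic acetyl-CoA from citrate for both branches, gave a difference of 0.00 with a 95% interval of -0.07 to 0.07. Quantile normalisation put Acly at -0.15 instead, with a limma adjusted p of 0.00224. Acss2 was not called (0.08, -0.15 to 0.30).

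Of the 5 regulators, 3 were called lower under Keniry2022, and all were small differences. Srebf1, which encodes SREBP-1, had 3.74 and 3.69 log2 RPKM at p10 and 3.65 and 3.66 at p20 under Keniry2022, and 3.95 and 3.94 at p10 and 3.98 and 3.96 at p20 under Mulas2019. The p0 libraries (3.72 and 3.75) lay beside the Keniry2022 ones, and the method difference was -0.27 ± 0.037 (limma adjusted p = 0.000291). Srebf2, at a far higher level, had 6.19 and 6.10 at p10 and 6.07 and 6.09 at p20 under Keniry2022, against 6.27 and 6.32 at p10 and 6.20 and 6.16 at p20 under Mulas2019. These ranges overlapped.

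The Srebf2 difference was -0.12 ± 0.043 (limma adjusted p = 0.0339; 0.400 in the 10-library model). Its call was lost (adjusted p 0.0711 to 0.0944) without p10 Keniry2022 replicate 2, either p20 Keniry2022 library or either p10 Mulas2019 library. Median centring ended it as well (limma adjusted p = 0.0734). Its p0 libraries were at 5.56 and 6.05, both below the other 8.

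Both INSIG genes had lower means under Keniry2022. Insig1, itself an SREBP target, had 5.84 and 5.71 log2 RPKM at p10 and 5.83 and 5.68 at p20 under Keniry2022, against 6.04 and 5.96 at p10 and 5.94 and 5.89 at p20 under Mulas2019, with p0 at 5.73 and 5.99. It was called lower under Keniry2022 (-0.19 ± 0.048, limma adjusted p = 0.00713; 0.113 in the 10-library model). Insig2 had 2.37 and 2.46 at p10 and 2.46 in both p20 libraries under Keniry2022, against 2.51 and 2.54 at p10 and 2.57 and 2.59 at p20 under Mulas2019, with p0 at 2.37 and 2.64. Its ranges did not overlap, yet it was not called (-0.11 ± 0.048, limma adjusted p = 0.0702).

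Scap had 3.11 and 3.005 log2 RPKM at p10 and 3.01 and 3.04 at p20 under Keniry2022, against 2.98 and 3.04 at p10 and 3.27 and 3.04 at p20 under Mulas2019, with p0 at 2.59 and 2.76. It was not called between the methods (-0.04, 95% interval -0.18 to 0.11). Both p0 libraries were lower than all 8 later ones, under either method.

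Stard4, a cytosolic carrier that moves cholesterol between membranes, differed nearly as much as Dhcr7. It had 3.13 and 2.97 log2 RPKM at p10 and 3.24 and 3.07 at p20 under Keniry2022, against 3.74 and 3.73 at p10 and 3.56 and 3.60 at p20 under Mulas2019. The difference was -0.55 ± 0.066 (limma adjusted p = 0.000166; 0.0738 in the 10-library model). At p0 replicate 1 stood at 2.38, below every other library, and replicate 2 at 3.34, between the methods.

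Other measures moved with the method beside these differences. The 8 mESC markers summed to 1387 to 1531 RPKM under Keniry2022 and 1278 to 1308 under Mulas2019, and the 6 trophoblast markers, most of it Tfap2c, to 22.5 to 26.9 and 27.5 to 34.7 RPKM. The mESC list went both ways: Pou5f1 (0.40), Nanog (0.18) and Zfp42 (0.30) were called higher under Keniry2022, Klf4 was called lower (-0.40, limma adjusted p = 0.00365) and the other 4 were not called. Both trophoblast markers that passed the filter were called lower under Keniry2022. Eomes, above 1 RPKM in every library, differed by -0.40 (limma adjusted p = 0.0162), and its ranges did not overlap. Tfap2c differed by -0.33 (limma adjusted p = 0.0202), with overlapping ranges. The other trophoblast markers stayed below 1 RPKM, among them Cdx2 at 0.04 to 0.45 RPKM and Elf5 at 0.01 to 0.06. The part of the mESC and trophoblast markers in the sterol and fatty acid results was not tested. Exons of 12 members overlap those of another annotated gene, and whether reads were counted by strand is not given in the sources used here. Among the members shown with all their values these are Hmgcs1, Lss, Cyp51, Tm7sf2, Srebf1, Scap and Scd2, whose reads cannot be fully parted from those of the overlapping gene.

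When each passage was tested alone, in a model of all 10 libraries, few members were called. At p10, 3 members were called lower under Keniry2022 and none higher, where 4.77% of 11561 features were called lower and 3.76% higher. They were Dhcr7 (-0.70 ± 0.089, limma adjusted p = 0.00723), Lss (-0.63 ± 0.102, adjusted p = 0.0144) and Fads1 (-0.44 ± 0.090, adjusted p = 0.0274). At p20 Dhcr7 alone was called lower (-0.54 ± 0.089, limma adjusted p = 0.0302) and none higher, where 1.54% of features were called lower and 0.614% higher. The median over members was -0.23 at p10 and -0.16 at p20.

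These counts depended on p0 through the shared estimate of spread. Without either p0 library, or both, 24 members were called at p10 (22 lower, 2 higher) and 17 at p20 (15 lower, 2 higher), and Hmgcs1 and Ebp were the genes called higher at each passage. Calls over all features went up too: without both p0 libraries, 23.5% of 11654 features were called lower and 24.8% higher at p10, and 18.2% and 18.6% at p20. The share called at p20 in either direction was 36.2% without p0 replicate 1, 36.3% without p0 replicate 2 and 36.7% without both. Leaving out 1 library of either method left a lone library in its group, and fewer features were then called at both passages. The p10 calls were lost without any 1 p10 library, and Fads1 also without any 1 p20 library. The p20 call was lost without any 1 library of either method. Without 1 p10 library, the p10 difference was -0.79 to -0.62 for Dhcr7, -0.66 to -0.6 for Lss and -0.46 to -0.43 for Fads1. Without 1 p20 library, Dhcr7 differed by -0.58 to -0.49 at p20. With the replicate block no member was called at p20, and Dhcr7 had a limma adjusted p of 0.0557. That block used the replicate numbers as labelled, and the Y-linked reads of the p20 Keniry2022 pair ran opposite to the other pairs.

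The comparison matched in days, p20 Keniry2022 against p10 Mulas2019, gave 2 members called lower and 1 called higher, where 3.59% of features were called lower and 2.84% higher. Dhcr7 (-0.65 ± 0.089, limma adjusted p = 0.0142) and Lss (-0.63 ± 0.102, adjusted p = 0.0190) were lower, and Ebp was higher (0.52 ± 0.118, adjusted p = 0.0441). The Ebp call was lost with the replicate block as labelled (limma adjusted p = 0.0675) and with median centring (0.0584). It was also lost with no filter (0.0517) and with the filter at log2 of 2 (0.0532). Without either p0 library, or both, 23 members were called, 21 lower and 2 higher, where 20.7% of features were called lower and 22.7% higher without both. The share called lower was 20.3% without p0 replicate 1 and 20.2% without p0 replicate 2. Every one of these calls was lost without any 1 library of the compared groups. Dhcr7 alone kept its call without any 1 of the p10 Keniry2022 or p20 Mulas2019 libraries. Fewer features were called in these fits too.

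No member changed its method difference between p10 and p20 in the interaction test, and 0% of the 11561 features did (limma, 0 at an adjusted p of 0.05; 405 features had an unadjusted p under 0.05). None was called between p10 and p20 within Keniry2022 or within Mulas2019 either, again with 0% of features called in each. With both p0 libraries left out, 1 member was called within Mulas2019: Ebp, 0.34 higher at p20 than at p10. In that fit 288 of 11654 features were called.

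Each cultured group was also compared with p0. No member was called in p10 or p20 Keniry2022 against p0, where 0.199% of 11561 features were called in each. In p10 Mulas2019, 11 members rose and 1 fell, where 15.7% of features rose and 17.3% fell. In p20 Mulas2019, 11 rose and none fell, against 14.7% and 14.6% of features. These 4 comparisons share the same p0 libraries and are not independent. The Mulas2019 comparisons called 8 members in common as higher than p0: Dhcr7, Lss, Hsd17b7, Sqle, Acaca, Fasn, Scd2 and Fads1.

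By branch, 5 of 9 fatty acid genes rose from p0 in p10 Mulas2019 and 5 of 9 in p20 Mulas2019, as did 4 of the 18 mevalonate and sterol enzymes in each. No mevalonate enzyme was called in either. Lss differed from p0 by 0.92 ± 0.102 in p10 Mulas2019 (limma adjusted p = 0.00602), Dhcr7 by 0.72 ± 0.089 (adjusted p = 0.00717), Acaca by 0.90 ± 0.223 (adjusted p = 0.0250), Scd2 by 0.77 ± 0.167 (adjusted p = 0.0184) and Fasn by 0.81 ± 0.225 (adjusted p = 0.0333). Ebp was the member that fell (-0.46 ± 0.118, limma adjusted p = 0.0270). Among the regulators, Srebf2 rose in p10 Mulas2019 (0.49 ± 0.142, adjusted p = 0.0371), and Srebf1 (0.23 ± 0.072, adjusted p = 0.0458) and Scap (0.47 ± 0.109, adjusted p = 0.0235) rose in p20 Mulas2019. With the replicate block, Hsd17b7 was not called in either Mulas2019 group and Srebf1 was not called in p20 Mulas2019 (adjusted p = 0.0623). With library quality weights no member was called against p0 in either Mulas2019 group, and neither was any other of the 11561 features. Side by side, the same genes in p10 Keniry2022 differed from p0 by 0.29 (Lss), 0.02 (Dhcr7), 0.50 (Acaca), 0.31 (Scd2), 0.60 (Fasn) and -0.06 (Ebp), none of them called.

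The fatty acid changes from p0 depended on p0 replicate 1. All 9 fatty acid genes were lower in p0 replicate 1 than in replicate 2, by a median of 0.59 log2 (0.17 to 0.84), with Fasn at 5.37 and 6.21, Acaca at 1.26 and 2.07 and Acly at 6.81 and 7.44. Of the 18 mevalonate and sterol enzymes 8 were lower in replicate 1, and the differences ran both ways, from -0.68 for Tm7sf2 to 0.70 for Idi1. Without p0 replicate 1, Scd2 differed from p0 by 0.47 in p10 Mulas2019, Acaca by 0.49 and Fasn by 0.39, all still called, while Dhcr7 (0.67) and Lss (0.79) moved little. The counts then were 20 higher and 3 lower in p10 Mulas2019, where 19.8% of features rose and 20.6% fell, and 15 higher and 2 lower in p20 Mulas2019, where 18.8% rose and 18.7% fell. They were 1 higher and 1 lower in p10 Keniry2022, where 2.42% of features rose and 2.82% fell, and 1 higher and 2 lower in p20 Keniry2022, where 2.22% rose and 2.39% fell. Sqle was the member called higher under Keniry2022 at both passages, Cyp51 was called lower at both and Scd1 was called lower at p20.

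Leaving out p0 replicate 2 instead left 1 library at p0. The median difference of the 9 fatty acid genes from p0 was then 0.64 log2 in p10 and 0.68 in p20 Keniry2022. It was 0.75 in p10 and 0.79 in p20 Mulas2019. Over the 18 mevalonate and sterol enzymes the median was -0.03 and -0.05 in p10 and p20 Keniry2022, and 0.14 and 0.09 in p10 and p20 Mulas2019. Over all features the 4 medians lay between -0.02 and 0.03. In that fit 8 of 9 fatty acid genes were called higher than p0 under either method, where 32.2% to 37.1% of features were. Leaving out any 1 non-p0 library gave fewer members called against p0 under Mulas2019, and fewer features too. Both were fewest without a compared Mulas2019 library.

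The branches were set side by side as the mean of each gene's log2 RPKM after centring on its own mean over the 10 libraries. This is a description, with no test. The 18 mevalonate and sterol enzymes averaged -0.12 to -0.01 in the 4 Keniry2022 libraries and 0.08 to 0.17 in the 4 Mulas2019 libraries. The 9 fatty acid genes averaged -0.04 to 0.02 and 0.15 to 0.21. The gap between the methods was thus -0.19 for the sterol branch and -0.20 for the fatty acid branch.

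The branches parted only at p0 replicate 1, where the sterol branch stood at -0.07 and the fatty acid branch at -0.61. In p0 replicate 2 they stood at -0.09 and -0.06. In the 8 cultured libraries, the sterol level minus the fatty acid level stayed between -0.11 and 0.00. The mean gap was -0.24 for the sterol steps and -0.11 for the mevalonate steps, where Hmgcs1 ran the other way, and the median differences of -0.26 and -0.22 were close. It was -0.29 for desaturation and elongation and -0.09 for supply and synthesis, with medians of -0.35 and -0.08.

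**Figure D4:**
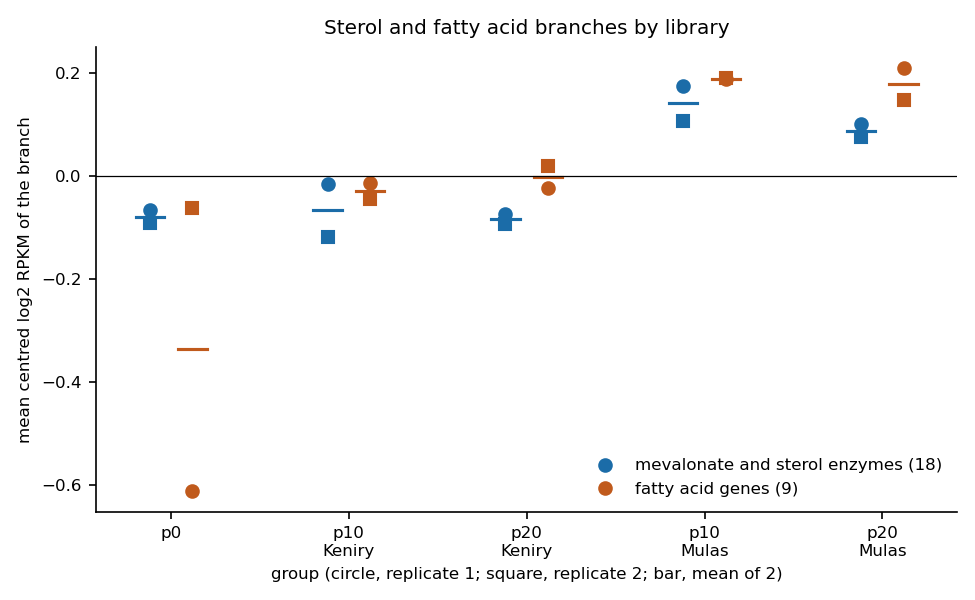
Mean centred log2 RPKM (vertical axis) of the 18 mevalonate and sterol enzymes (blue) and the 9 fatty acid genes (orange) in each library, by group; circles are replicate 1, squares replicate 2 and bars means of 2. Both branches lie between 0.08 and 0.21 in every Mulas2019 library and at or below 0.02 in every Keniry2022 library, and the fatty acid branch of p0 replicate 1 lies alone at -0.61.

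Genes of neighbouring pathways were listed as well and tested in the same pooled comparison. Each count reads against the 25.5% of all features called lower and the 25.9% called higher. Of 17 further lipogenic genes, 11 were called lower under Keniry2022 (64.7%) and none higher, with a median of -0.25. Mlxipl, which encodes the carbohydrate-responsive factor ChREBP, averaged -0.17 log2 RPKM under Keniry2022 and 1.07 under Mulas2019. It passed the filter through the Mulas2019 libraries, 4 of which were above 0 against 1 under Keniry2022, so its difference is given without a test, and the count of 11 includes it. Acacb, the mitochondrial acetyl-CoA carboxylase, was lower under Keniry2022 (-0.40, limma adjusted p = 0.000212, and 0.075 in the 10-library model). Of 12 sterol trafficking and esterification genes, 6 were called lower and none higher, with a median of -0.16. Por, the reductase that passes electrons to CYP51 and squalene epoxidase, differed by -0.40 (limma adjusted p = 7.79e-05).

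Genes that act on SREBP processing were split, with 4 of 10 called lower, 2 called higher and a median of -0.10. The COPII subunit Sec24a differed by -0.31, whereas Rnf145 (0.17) and the COPII subunit Sec23a (0.13) were higher under Keniry2022. In the 10-library model Rnf145 (limma adjusted p = 0.12) and Sec23a (0.4) were not called. Of the 12 genes for other isoprenoid products, 2 were called lower and 2 higher (16.7% each, below the share over all features). Their median was -0.03. Coq2, of ubiquinone synthesis (-0.49), and Icmt (-0.26) were lower, and the farnesyltransferase subunit Fnta (0.29) and Pdss1 (0.30) were higher. Icmt (limma adjusted p = 0.077) and Pdss1 (0.086) were not called in the 10-library model.

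Of 7 genes of the LXR and sterol efflux list, 4 passed the filter. Mylip, an LXR target that encodes the ubiquitin ligase IDOL, was higher under Keniry2022 (0.25 ± 0.068, limma adjusted p = 0.0109, and 0.077 in the 10-library model). The cholesterol exporter Abca1 averaged 0.66 log2 RPKM under Keniry2022 and -0.01 under Mulas2019. It lay at the filter, above 0 in 4 Keniry2022 and 2 Mulas2019 libraries, and is given without a test.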

How the data were processed

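RNA-seq of 10 mESC libraries was analysed from the table that the authors deposited. Its log2 values are named log CPM, but the values listed for features with 0 reads move with feature length, as in log2 RPKM. Alignment was to mm10; the study names HISAT2, and the submitters' processing notes name TopHat2. Strand setting and annotation release: not given in the sources used here. Read numbers were recovered from the steps between values and used for depth only, apart from 1 alternative. No column of values was left unused (0).

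The deposited log2 values were tested with limma 3.58.1 (R 4.3.3; two-sided moderated test with intensity trend). Features entered where log2 passed 0 in 50% or more of the fitted libraries, p-values were adjusted over all of them by Benjamini-Hochberg, and the threshold was 0.05. The methods were compared over both passages in 8 libraries without a block, and all other comparisons came from a model of 10 libraries and 5 groups. The scripts were tested on simulated data. With 2 libraries a group, from 2 lines, p-values measure the spread between these libraries.

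Replicate numbers stand for the lines, per the study. The differences between replicates correlated between 0.171 and 0.63 among the p0, p10 Keniry2022 and Mulas2019 groups, and between -0.698 and -0.118 with p20 Keniry2022.

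Members and gene lists were chosen with earlier results of these data known. Values in every library are given for the regulators, Stard4, the 3 sterol pathway and 3 fatty acid genes with the smallest p, and members called against their branch; of the other lists, the 2 called genes with the smallest p in each direction, some of which are not reported here. Alternatives covered normalisation, filter, pseudocount, block, passage term, weights, voom and left-out libraries.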

Additional observations from a re-analysis of the deposited data

Results flagged for a closer look

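With 4 libraries a method, 66 groups of values (33 members under each method) were searched for a library far from the other 3, a search that chance alone would answer in about 1 of 20 groups, and 4 were found. Pmvk was at 4.85 log2 RPKM in p10 Mulas2019 replicate 1, with the next library at 4.62. Nsdhl was at 3.86 in p10 Keniry2022 replicate 1, with the next at 3.79. Sc5d was at 3.17 in p10 Keniry2022 replicate 2, with the next at 3.34. Insig2 was at 2.37 in p10 Keniry2022 replicate 1, with the next at 2.46. For 2 members, every Keniry2022 library lay on 1 side of every Mulas2019 library at p10 and on the other side at p20. The share of all features that do so was not counted, so these 2 have no background to be read against. Sqle differed by -0.15 at p10 and 0.05 at p20, and Acss2 by 0.22 at p10 and -0.06 at p20. The interaction test called neither.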

How the results depend on the processing

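The 3 higher and 22 lower calls between the methods became 1 and 8 (9 in all) in the model of 10 libraries and 5 groups. They became 1 and 25 under quantile normalisation. Median centring gave 3 and 20. Over all features the 10-library model called 1000 higher and 1225 lower of 11561. With the replicate block the count was 25, as it was with the p20 Keniry2022 numbers exchanged, an alternative chosen after seeing the data, and the block changed no member's call in that comparison. The block gave 0 called at p20, and 13 and 9 for p10 and p20 Mulas2019 against p0. It ended the calls of Dhcr7 at p20, Ebp for matched days, Hsd17b7 in both Mulas2019 groups against p0 and Srebf1 in p20 Mulas2019. In those fits only the labelled replicate numbers were tried, not the exchanged ones. Quantile normalisation gave 6 called at p10, 2 at p20 and 6 for matched days, library quality weights 25, 15 and 23, and leaving out both p0 libraries 24, 17 and 23. Against p0, weights left 0 called in p10 and 0 in p20 Mulas2019, over members and over all features alike. No filter left 6 members in p20 Mulas2019. Within Mulas2019, weights or no p0 gave 1, where 512 of 11561 and 288 of 11654 features were called. With 1 library left out, counts ran from 21 to 25 pooled, 0 to 24 at p10, 0 to 17 at p20, 0 to 23 for matched days, 0 to 21 and 0 to 20 for p10 and p20 Keniry2022 against p0, 0 to 23 for p10 and 0 to 23 for p20 Mulas2019, and 0 to 1 within Mulas2019; a lone library was assumed to vary like the other groups. Of the 25 members called in the pooled comparison, 8 kept their call and direction under all 19 alternatives, 12 lost it in the 10-library model alone, and none reversed. Acly became 0.011 with median centring and ran from -0.023 to 0.013 with 1 library left out, and Scap from -0.072 to 0.025. The fatty acid branch difference became -0.23 with members above log2 2. Counting limits the precision most for Idi1, with as few as 161 reads. The cause of these changes was not tested.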
